A study of Mus musculus with 2 samples.

Results

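The small leucine-rich proteoglycans (SLRPs) analysed here are 10 genes taken by symbol from a list, Dcn, Bgn, Aspn, Fmod, Lum, Prelp, Kera, Omd, Ogn and Podn. Each was read by a probe set of its own, so 10 of the 19751 named genes of the array are described. The list was drawn up with the intensities of both arrays known, so its values are a description and support no test. Expression was measured by microarray in 1 group with 2 replicates, fibroblastic reticular cells (FRCs) expanded in culture from lymph nodes of C57BL6/J mice that were 4 to 6 weeks old and had no treatment. FRCs are the fibroblasts that lay down the collagen conduits of the node. The stromal cells were kept for 7 to 10 days in medium with 10% fetal calf serum, and the sources used here do not say how the FRCs were purified or whether the replicates were separate animals or cultures. There is no second condition and no freshly isolated FRC in the series, so the arrays show levels in culture and how far the replicates differed. Each side of such a difference is 1 array and has no replicate check.

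SLRPs are secreted proteins whose leucine-rich repeats form a curved core that binds collagen fibrils. Most carry chondroitin, dermatan or keratan sulfate chains, and they are known for setting fibril spacing and diameter and for holding growth factors such as TGF-beta in the matrix. They are sorted into classes by sequence. Class I holds decorin (Dcn), biglycan (Bgn) and asporin (Aspn). Class II holds fibromodulin (Fmod), lumican (Lum), Prelp, keratocan (Kera) and osteomodulin (Omd). Osteoglycin (Ogn) belongs to class III and podocan (Podn) to class V.

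Several of these genes lie side by side in the genome, and the sequences before 5 of them are shown because the genes that differed most between the arrays fall into 2 such neighbourhoods. RefSeq's promoter table (GRCm38.p6) had 8 of the 10 genes. Each sequence is the 250 bases before the annotated start, 5′ to 3′ on the strand of the gene. Prelp (chr1:133921402-133921651, minus strand) and Fmod (chr1:134037004-134037253, plus strand) are divergent neighbours on chromosome 1, with starts 115853 bp apart. Aspn (chr13:49544193-49544442), Omd (chr13:49582212-49582461) and Ogn (chr13:49607765-49608014) follow each other on the plus strand of chromosome 13, with 63572 bp between the starts of Aspn and Ogn. Capitals mark matches, on either strand, to any of 7 motifs: the TATA box (TATAAA), the CCAAT box, the GC box (GGGCGG), the AP-1 site (TGANTCA), the Smad-binding CAGA box (CAGACA), the TEAD site (GGAATG) and an E-box (CAGCTG).
Prelp: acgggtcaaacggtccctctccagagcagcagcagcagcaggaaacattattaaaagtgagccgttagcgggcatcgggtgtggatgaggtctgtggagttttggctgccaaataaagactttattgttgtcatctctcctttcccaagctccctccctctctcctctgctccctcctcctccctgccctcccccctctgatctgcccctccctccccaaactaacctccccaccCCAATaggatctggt
Fmod: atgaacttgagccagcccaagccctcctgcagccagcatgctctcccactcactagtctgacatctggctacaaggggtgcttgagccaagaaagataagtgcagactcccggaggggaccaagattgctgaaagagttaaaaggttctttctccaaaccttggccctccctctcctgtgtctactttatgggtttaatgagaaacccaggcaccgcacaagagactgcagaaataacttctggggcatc
Aspn: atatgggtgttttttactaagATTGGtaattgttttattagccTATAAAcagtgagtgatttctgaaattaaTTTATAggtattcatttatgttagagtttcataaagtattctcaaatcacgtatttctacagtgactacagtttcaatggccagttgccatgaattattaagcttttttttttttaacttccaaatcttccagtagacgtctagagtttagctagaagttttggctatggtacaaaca
Omd: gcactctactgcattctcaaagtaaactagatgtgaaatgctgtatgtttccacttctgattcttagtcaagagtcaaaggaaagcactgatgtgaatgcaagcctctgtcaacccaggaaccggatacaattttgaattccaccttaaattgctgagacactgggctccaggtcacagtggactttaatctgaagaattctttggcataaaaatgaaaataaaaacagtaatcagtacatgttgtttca
Ogn: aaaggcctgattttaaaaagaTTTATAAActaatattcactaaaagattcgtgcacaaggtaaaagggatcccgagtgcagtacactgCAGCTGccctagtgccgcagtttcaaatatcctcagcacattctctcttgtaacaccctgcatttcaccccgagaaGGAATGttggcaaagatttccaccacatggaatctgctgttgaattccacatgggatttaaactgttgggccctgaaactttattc
No motif of the 7 was shared by Prelp, Fmod, Aspn and Ogn. CCAAT was present before Prelp and Aspn and in 33.8% of all 32851 promoter windows of this length. TATAAA was present before Aspn and Ogn, first bases at -207 and -178 from the start in Aspn and at -229 and -227 in Ogn, and in 12.4% of all windows. Ogn also held GGAATG (12.6% of all windows) and CAGCTG (13%), and its TATAAA matches on opposite strands overlap. The windows of Fmod and Omd held none of the 7. The GC content was 30.0% for Aspn, 38.4% for Omd, 42.0% for Ogn, 51.2% for Fmod and 55.6% for Prelp, against a median of 52.4% over all windows. These matches describe the letters of the windows and are not binding sites.

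Levels are log2 intensities, read against a background limit set from olfactory receptor genes, which a fibroblast is taken not to express, as the 95th percentile of their 1035 probe sets. The limit was 7.15 on replicate 1 and 7.17 on replicate 2. A stricter limit used genes of other tissues such as liver, retina and testis in the same way and was 8.07 and 8.18. Dcn, Bgn, Fmod, Prelp and Podn, 5 of the 10 SLRP genes, passed the first limit on replicate 1 and replicate 2, where 67.3% of all named genes did. Without Fmod, 4 of 10 passed the stricter limit on both arrays, where 50.0% of all named genes did. Aspn and Ogn passed both limits on replicate 2 only, which brought the number above the first limit to 7 on that array against 5 on replicate 1. Lum, Kera and Omd were below both limits on both arrays. Levels of different genes were not ranked, because the binding strength of probes varies.

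**Figure D1:**
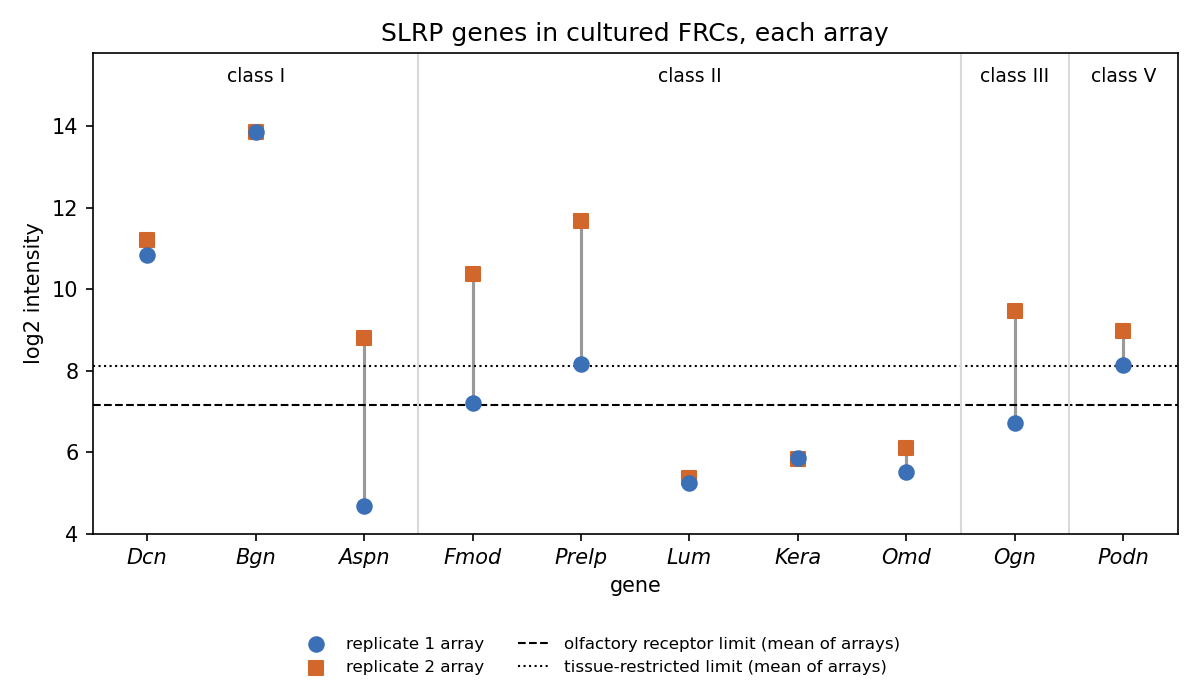
The log2 intensity (vertical axis) of each of the 10 SLRP genes (horizontal axis, grouped by class) is plotted for the replicate 1 array (circles) and the replicate 2 array (squares). Dashed and dotted lines are the olfactory receptor and tissue-restricted limits, averaged over the arrays. Bgn, Dcn, Lum and Kera have both symbols close together, while Aspn, Fmod, Prelp and Ogn are far apart with replicate 2 on top.

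Among class I genes, the archetypal pair Dcn and Bgn gave strong and similar signal on both arrays, and Aspn did not. Dcn, which encodes the dermatan sulfate proteoglycan that decorates collagen fibrils, was at 10.85 on replicate 1 and 11.20 on replicate 2 (11.02 ± 0.25, SD, n = 2). Its difference, 0.35 on the log2 scale or 1.28-fold, lay inside the central 90% of the 2107 genes within 0.5 of its level, which ran from -0.30 to 0.40. Bgn, whose product carries chondroitin or dermatan sulfate chains and can signal through Toll-like receptors when released, was at 13.87 and 13.86 (SD 0.0043, n = 2). The values for Bgn differed by -0.0061, inside the central 90% of the 60 genes of like level (-0.11 to 0.21). Only 27 probe sets on either array were brighter, so its signal lay near the top of the range, where an array shows differences less well.

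Aspn was at background on replicate 1 and above both limits on replicate 2. Asporin is the class I member with a run of aspartate residues, and it binds collagen and TGF-beta and lacks the usual glycan attachment site. Its log2 intensity was 4.68 on replicate 1, a level that 26.3% of the olfactory receptor probe sets did not reach, and 8.80 on replicate 2, where 99.8% of them were lower. The measured gap was 4.12 on the log2 scale, but the lower array was at background, so the fold is given as a lower bound. Against the olfactory receptor limit Aspn was at least 3.13-fold higher on replicate 2, and against the stricter limit at least 1.66-fold. A filter that keeps genes by mean level drops Aspn, whose mean was 6.74.

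The class II genes divided into a pair with large differences and a trio at background. Prelp, whose product links collagen to heparan sulfate of basement membranes, was at 8.16 on replicate 1 and 11.67 on replicate 2 (SD 2.48, n = 2), which is 11.4-fold. Fmod, which encodes a keratan sulfate proteoglycan that binds type I collagen and guides its cross-linking, was at 7.20 and 10.37 (SD 2.24, n = 2), which is 8.99-fold. On replicate 1 Fmod was only 0.05 above the olfactory receptor limit, and against the stricter limit it was at least 4.91-fold higher on replicate 2. For both genes replicate 1 was near a limit (Prelp 0.09 above the stricter one) and replicate 2 far above both.

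The remaining class II genes gave no signal that could be told from background. Lumican organises collagen in the cornea and in many connective tissues, and Lum was at 5.24 and 5.37. Kera, known from the corneal stroma, was at 5.86 and 5.82. Omd, known from bone, was at 5.52 and 6.10. On replicate 2, 49.2%, 65.9% and 74.1% of the olfactory receptor probe sets were lower than Lum, Kera and Omd respectively. No fold is given for them, and a probe set at background does not show that the transcript is absent.

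Ogn, the class III member, also called mimecan, was clearly above background on replicate 2 only. It was at 6.72 on replicate 1, below the limit, and at 9.45 on replicate 2 (SD 1.93, n = 2). That is at least 4.93-fold against the olfactory receptor limit and at least 2.61-fold against the stricter limit. Podn, the class V member, which is known as an inhibitor of smooth muscle cell growth and migration, was above both limits on both arrays with 8.14 and 8.97 (SD 0.59, n = 2). The Podn difference, 0.83 or 1.77-fold, lay outside the central 90% of the 2656 genes of like level (-0.45 to 0.50).

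Over the family, 8 of the 10 genes were higher on replicate 2, where 51.6% of all 19751 named genes were, and the lower ones, Bgn and Kera, differed by less than 0.05. The 2-fold count was made over the 13577 genes with a mean above 7.16, the mean of the limits on both arrays, and 6 SLRP genes are among them. Of these, Prelp, Fmod and Ogn were at least 2-fold higher on replicate 2 and 0 were at least 2-fold lower, where 1.05% of the 13577 genes were that much higher and 0.368% that much lower. With genes kept when either array passed its limit and the other array set to the limit, Aspn joined them, making 4 genes higher and 0 lower, where 1% of 13804 genes were 2-fold higher and 0.319% 2-fold lower. The same 4 genes were past 2-fold on the measured values with no filter, where 0.785% of all named genes were. At 1.5-fold Podn passed beside Prelp, Fmod and Ogn, where 2.87% of the 13577 genes did. The median difference was 0.70 over all 10 SLRP genes and 0.0059 over all named genes. This median and the count of 8 of 10 take in Lum, Kera and Omd, which were at background on both arrays. Over the 6 SLRP genes with a mean above the limit the median difference was 1.78, with 5 of 6 higher, and over the 13577 genes it was 0.0046. Ogn is among the 6 through replicate 2 only. Its measured difference of 2.74 enters that median, and it is 2.30 with replicate 1 set to the limit. Because the genes were listed with these values known, these shares are read no further.

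**Figure D2:**
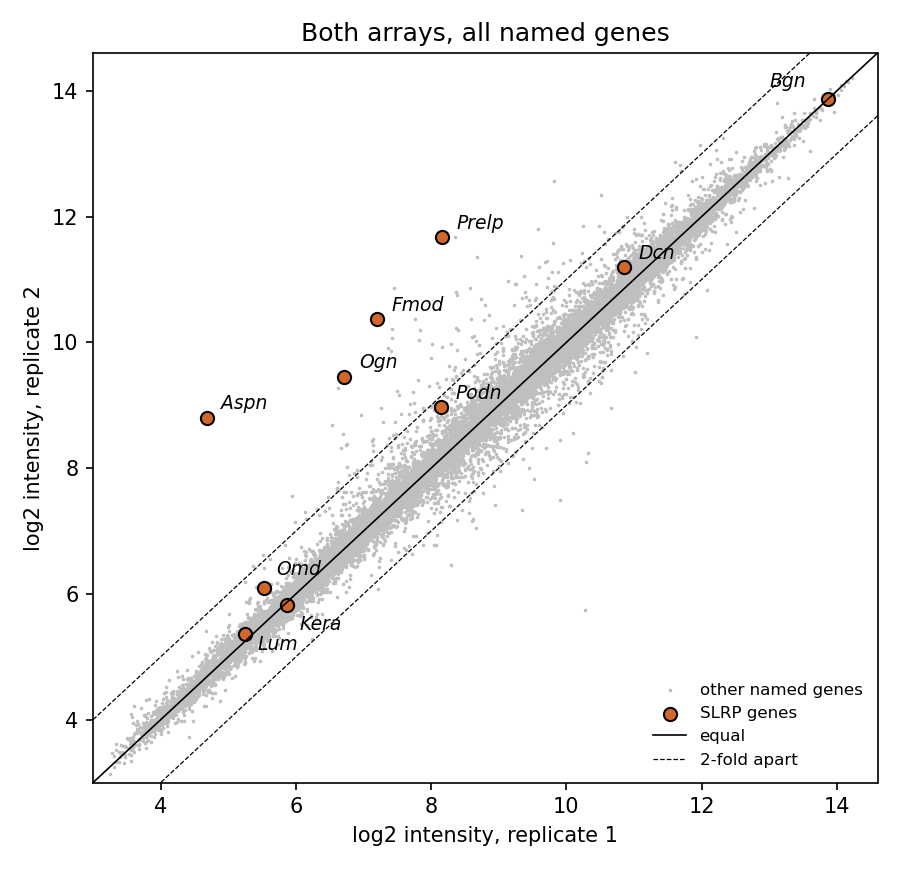
Log2 intensity on replicate 2 (vertical axis) is plotted against replicate 1 (horizontal axis) for all 19751 named genes (grey) and the 10 SLRP genes (orange, labelled). The solid line marks equal values and the dashed lines a 2-fold difference. Aspn, Prelp, Fmod and Ogn lie above the upper dashed line, and the other 6 SLRP genes lie between the lines.

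Genomic neighbours were alike in some places and unlike in others. On chromosome 1 the order is Optc, Prelp, Fmod. Optc, the class III gene opticin known from the eye, was at 7.73 and 7.85, above the first limit only, beside the 11.4-fold and 8.99-fold differences of Prelp and Fmod. On the far side of Fmod, Btg2, an antiproliferative gene, was lower on replicate 2 (10.41 and 9.81). On chromosome 10 the order is Dcn, Lum, Kera, Epyc. Dcn was well above both limits on both arrays, while Lum, Kera and the class III gene epiphycan (Epyc, 5.82 and 5.86) were below both. On chromosome 13 the order is Ecm2, Aspn, Omd, Ogn. Ecm2, a matrix gene related to the family, was at 5.52 and 6.61, below the limit on both arrays like Omd. Aspn and Ogn, above the limit on replicate 2, thus had Omd at background between them and Ecm2 at background beside Aspn. On the other side of Ogn, the nucleolar gene Nol8 was at 10.55 and 10.42. In the RefSeq gene table the centromere gene Cenpp overlaps Aspn, Omd and Ogn on the opposite strand, and it was below the limit at 6.50 and 6.03.

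**Figure D3:**
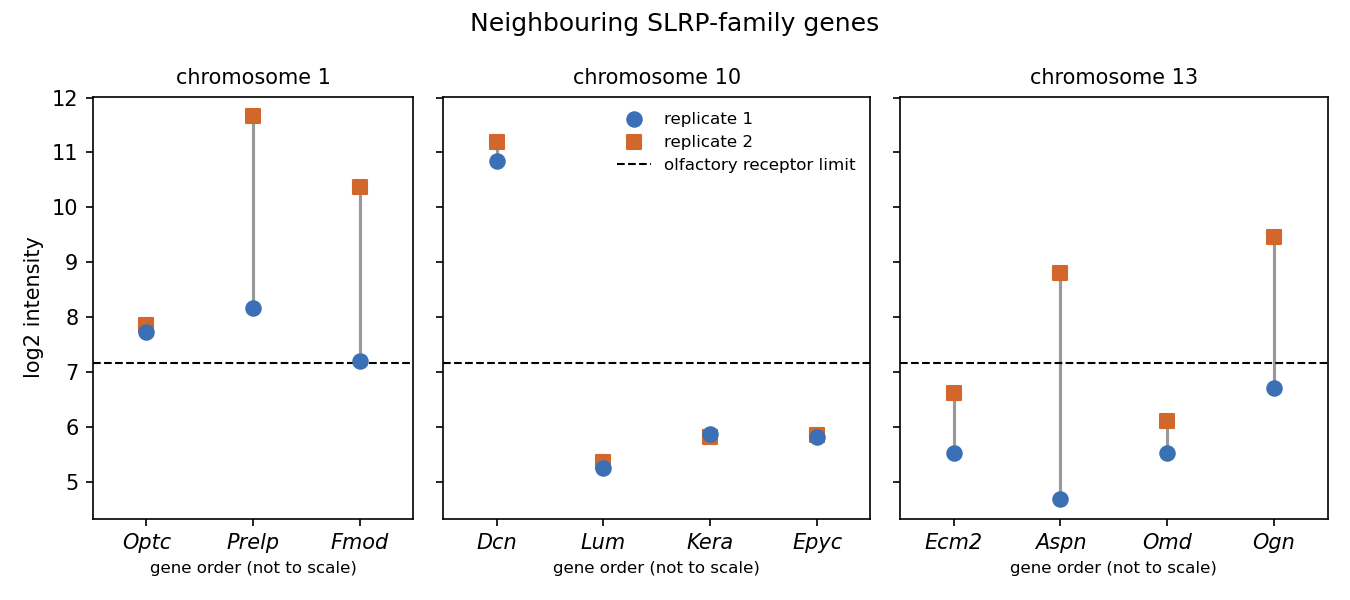
Log2 intensity (vertical axis) on replicate 1 (circles) and replicate 2 (squares) is shown for genes in their order along chromosomes 1, 10 and 13 (horizontal axis, equal spacing). The dashed line is the mean olfactory receptor limit. Large gaps between the arrays appear for Prelp and Fmod and, on both sides of Omd, for Aspn and Ogn, and the chromosome 10 group shows none.

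Of 8 further genes related to the family, 7 were measured, and 3 passed the first limit, where 67.3% of all named genes did. Podnl1, a podocan-like gene, passed both limits at 8.44 and 8.51, and Optc and Chadl (7.27 and 7.42) passed the first only. Epyc, Ecm2, Nyx (nyctalopin, 6.39 and 6.37) and the cartilage gene Chad (7.05 and 6.90) were below. None of the 3 that passed differed 2-fold, where 1.05% of the 13577 genes with a mean above the limit were 2-fold higher and 0.368% lower.

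Most enzymes that build the glycan chains of SLRPs gave signal on both arrays. Among all named genes 67.3% passed the first limit and 50.0% the stricter one. Of these enzyme genes 0 differed 2-fold. Of the 13577 genes with a mean above the limit, 1.05% were at least 2-fold higher on replicate 2 and 0.368% at least 2-fold lower. A count of 0 is near those shares. All 7 genes for the linker sugars passed both limits, with Xylt1, which starts the chain, at 9.24 and 9.41, and B4galt7, which adds the next sugar, at 9.20 and 9.37. All 15 chondroitin and dermatan sulfate genes passed the first limit and 14 the stricter one, the exception being the sulfotransferase Chst3 (7.48 and 7.23). The epimerase gene Dse, needed for dermatan sulfate, was at 11.24 and 11.31 and the dermatan sulfotransferase gene Chst14 at 11.30 and 11.48. Of the 8 keratan sulfate genes, 6 passed. The sulfotransferase genes Chst4 (6.58 and 6.36) and Chst5 (7.07 and 7.11) did not, and Chst1, which sulfates galactose in keratan sulfate, was at 10.08 and 9.54. In these 3 lists the median differences were 0.18, 0.16 and 0.12. The largest differences were those of Csgalnact1 (9.61 and 10.38, 1.71-fold) and Chsy3 (8.30 and 8.96, 1.58-fold), both chondroitin sulfate genes.

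Collagens, the main binding partners of SLRPs, were nearly all higher on replicate 2. All 16 genes for fibril collagens and their associates passed the first limit and all but Col24a1 (7.81 and 7.80) the stricter one. Of all named genes 67.3% and 50.0% did. At least 2-fold higher on replicate 2 were 4 of 16, where 1.05% of the 13577 genes with a mean above the limit were. The 4 were Col6a1 (9.39 and 10.79, 2.64-fold), Col3a1 (10.05 and 11.30, 2.38-fold), the fibril-associated Col14a1 (8.34 and 9.56, 2.33-fold) and Col6a2 (9.12 and 10.16, 2.06-fold). Col1a1, the partner of fibromodulin, was at 12.50 and 13.03. The list's median difference was 0.48, with 14 of 16 higher, where 51.6% of all named genes were. Among 14 other measured fibril partners 13 passed, all but dermatopontin (Dpt, 6.22 and 6.68), and the thrombospondin gene Thbs2 differed 2.40-fold (11.60 and 12.86). Fibronectin (Fn1) was at 13.79 and 13.86 and the cross-linking enzyme gene Lox at 13.37 and 13.65.

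Genes that act on SLRPs or receive their signals were mostly above the limit, as were 67.3% of all named genes (50.0% for the stricter limit). Of the 13577 genes with a mean above the limit, 1.05% were at least 2-fold higher on replicate 2 and 0.368% at least 2-fold lower. Of 14 genes for proteases and processing factors, 13 passed, all but granzyme B (Gzmb, 6.20 and 6.10), and 9 passed the stricter limit. Bmp1, which trims the propeptides of biglycan and osteoglycin, was at 12.41 and 12.65 and Mmp14 at 12.63 and 12.71. Adamts5, an aggrecanase that also cleaves SLRPs, was the 1 gene of this list with a 2-fold difference, at 9.58 and 11.81 (4.70-fold). Of 14 receptors and partners, 13 passed, all but Erbb4 (6.58 and 6.42), 10 passed the stricter limit, and 0 differed 2-fold. The biglycan receptors Tlr2 and Tlr4 were at 8.13 and 8.09, and at 8.71 and 9.23. Tlr2 did not pass the stricter limit on replicate 2. The decorin receptors Met and Egfr were lower on replicate 2, at 9.59 and 9.04, and at 12.14 and 11.58. Of 17 TGF-beta genes all passed both limits, and Tgfb1 was at 11.26 and 11.31. The TGF-beta-induced matrix gene Tgfbi was at 8.71 and 9.96, 2.39-fold higher on replicate 2 and the 1 gene of that list past 2-fold.

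Of 26 proteoglycan genes outside the family 20 passed the first limit and 15 the stricter one, where 67.3% and 50.0% of all named genes did. Of the 21 with a mean above the limit 0 differed 2-fold, where 1.05% of the 13577 genes were 2-fold higher and 0.368% 2-fold lower. Serglycin (Srgn, 7.11 and 8.11) was only just short of 2-fold. Srgn was below the limit on replicate 1, so its fold is at least 1.94. Lubricin (Prg4), with a mean below the limit, was at 6.47 and 7.54, which is at least 1.31-fold. Versican (Vcan) was at 11.82 and 12.19, and the basement membrane proteoglycan perlecan (Hspg2) at 12.20 and 12.23. Their median difference was 0.07. Whether the lists differ from each other was not tested.

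**Figure D4:**
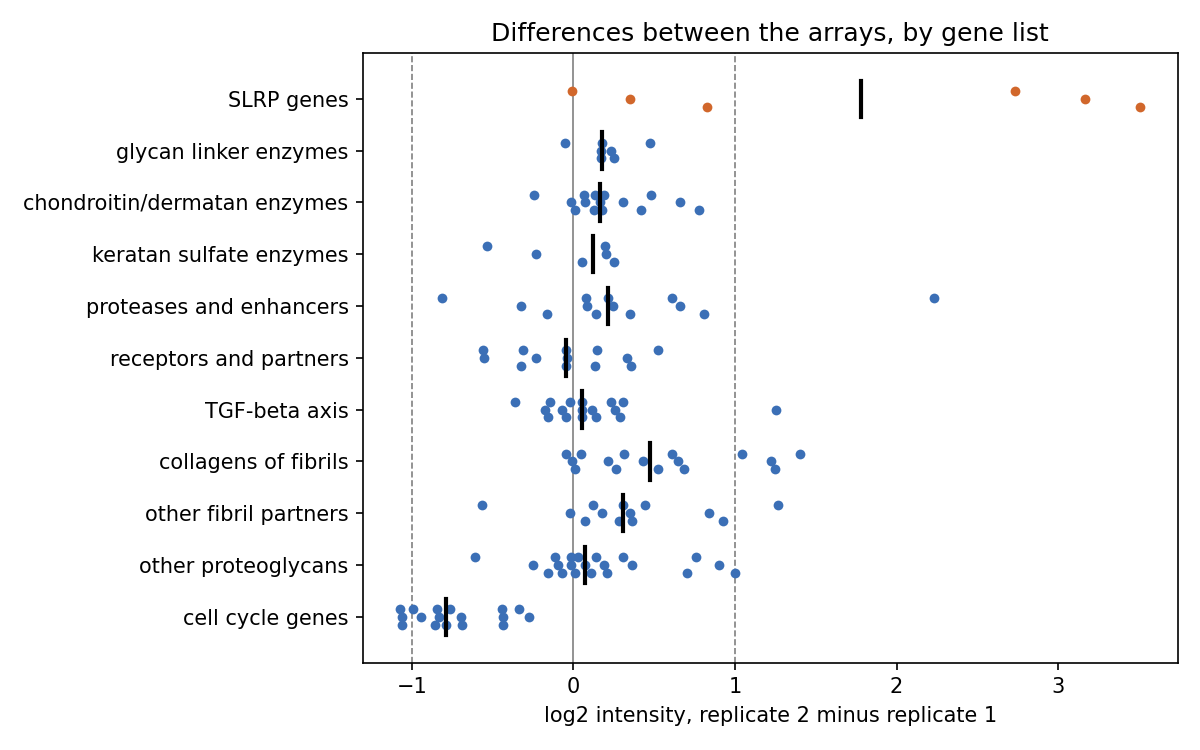
Each point is a gene with a mean above the olfactory receptor limit, placed by its difference in log2 intensity, replicate 2 minus replicate 1 (horizontal axis), with lists as rows and black bars as list medians. Dashed lines mark 2-fold. The SLRP row shows 6 of the 10 genes, since Aspn, Lum, Kera and Omd had means below the limit. Ogn and Srgn, below the limit on replicate 1, are placed by their measured differences. Cell cycle genes all lie left of 0 and most collagen genes right of it.

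Growth markers were lower on replicate 2, and a few markers of other cells differed 2-fold between the arrays. Over all named genes, 67.3% passed the first limit and 50.0% the stricter one, and 51.6% were higher on replicate 2. Of the 13577 genes with a mean above the limit, 1.05% were at least 2-fold higher on replicate 2 and 0.368% at least 2-fold lower. All 17 measured cell cycle genes were lower on replicate 2, with a median difference of -0.79. The proliferation marker Mki67 was at 10.52 and 9.45, Bub1 at 9.94 and 8.88, Plk1 at 10.83 and 9.78 (3 genes past 2-fold) and Top2a at 10.67 and 9.82. Of 12 FRC identity genes 10 passed, all but Bst1 and Fap, and 8 passed the stricter limit, where Il7 and Ccl19 also failed. Of the 10, 7 were higher on replicate 2, among them Pdpn (12.60 and 12.73) and Pdgfrb (12.81 and 13.11). The 3 lower ones were Il7 (8.66 and 7.74), Cxcl12 (9.96 and 9.63) and Ccl19 (8.17 and 7.85), and 0 differed 2-fold. SLRPs are also abundant in tendon, cartilage and bone. Of 12 measured markers of these tissues 7 passed and 3 the stricter limit, Sox9 (11.03 and 11.47), Col2a1 (9.38 and 9.59) and Scx. The summed intensity of the 12 was 4249 on replicate 1 and 5583 on replicate 2, and Sox9 was the largest part of both sums. Tenomodulin (Tnmd), a tendon gene, was at 6.53 and 8.68, at least 2.89-fold higher on replicate 2, whereas the tendon factor Scx was at 8.11 and 8.34 and the bone factor Sp7 (6.92 and 7.04) was below the limit, as were Matn1, Ibsp and Dmp1. Of 10 mural markers 7 passed and 5 the stricter limit, with sums of 10176 and 11757. Of the 7, 6 were higher on replicate 2, with Rgs5 (7.37 and 9.91, 5.81-fold) and Des (9.09 and 10.11, 2.03-fold) past 2-fold. Mcam was the 1 lower on replicate 2 (12.84 and 12.72), and it was the largest part of both sums. The other 3 mural markers, Abcc9, Higd1b and Angpt1, were below the limit. Of 9 leukocyte markers 3 passed (Csf1r, Cd68 and Cd3e) and 1, Cd68 (9.09 and 8.96), the stricter limit (sums 1490 and 1630). Ptprc was at 6.41 and 6.47, and Lyz2 (7.12 and 8.43) was at least 2.42-fold higher on replicate 2. Of 10 endothelial markers 5 passed (Cdh5, Kdr, Tie1, Emcn and Vwf) and 0 the stricter limit (sums 1544 and 1698), with Pecam1 at 7.22 and 7.13. The part of growth state, tendon-like or mural cells in the SLRP differences was not tested, and more such cells cannot be told apart from more RNA per cell.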

How the data were processed

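The values are the deposited intensities of 2 arrays on a linear scale, which the authors made with RMA, or robust multi-array average (no version is named), per the submitters' processing notes. RMA corrects background, quantile-normalises and compresses differences at low signal. Which arrays were normalised together, and the genome build, are not given in the sources used here. On replicates 1 and 2 they ran from 8.77 to 20232 and from 8.20 to 20996, with medians of 286.0 and 285.7, and precision is limited by there being 2 arrays.

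Log2 intensities were computed here with Python 3.11.15, pandas 2.3.3, numpy 2.4.6 and statsmodels 0.14.6. Of 24679 probe sets, 21354 named 1 gene in the platform annotation and were averaged per gene (19751 genes). Another 1275 named several and 2050 had no row there, and these were left out. Each SLRP gene had 1 probe set. Identifiers of 21277 probe sets were in RefSeq's gene table (GRCm38.p6), used for names and neighbours. The stricter limit rests on 37 probe sets of 36 genes, of which 16 passed the olfactory receptor limit. With 1 group no test was run. Fold counting was checked on simulated data.

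SLRP genes and lists were chosen with earlier results of these data known. Named were all SLRP genes and relatives, fixed genes of each list, those 2-fold apart (up to 6 a list) and the 5 or fewer on the smaller side of a limit. Btg2, Nol8 and Cenpp were named as neighbours. Genes in more than 1 list count in each, except in the count over all related lists together. Alternatives were other limits, 1 array, other probe set rules, quantile normalisation, loess (span 0.3), floors, filters and a 1.5-fold threshold.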

Additional observations from a re-analysis of the deposited data

How the results depend on the processing

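The number of SLRP genes above the limit was 5. It was 4 with the tissue-restricted limit or the 99th percentile of the olfactory receptors, 5 with the 90th percentile, and 5 or 7 without replicate 2 or replicate 1. The number 2-fold higher on replicate 2 was 3. It stayed 3 after quantile normalisation, after removal of a loess trend and with arrays set to either limit, was 2 when the mean had to pass the stricter limit, which drops Ogn, and was 4 without a level filter, where Aspn enters. At 1.5-fold it was 4, with Podn. The filter on either array, chosen after seeing the data, gave 4. Quantile normalisation and loess moved the difference of an SLRP gene by at most 0.023, and the difference of Bgn (-0.0061) became 0 under the former. Since RMA quantile-normalises, repeating that step on its output is a weak check. Floors moved Aspn from 4.12 to 1.65 and 0.73, Ogn from 2.74 to 2.30 and 1.38, and Fmod from 3.17 to 2.30 for the stricter limit only. The highest or lowest probe set changes no SLRP value, since each gene has 1. Over the related lists together, with each gene counted once, 166 genes passed the limit, and 132 to 178 under the alternatives. Counts per list, with list sizes, stand above beside the share of all named genes (67.3%). Leaving out an array leaves no difference to measure. No paired analysis was possible because the series has 1 group. Signal near background limits Aspn, Ogn, Fmod, Lum, Kera and Omd.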

Other observations

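The filter on mean level, used to count 2-fold differences, left out 14 genes that were 2-fold apart on the measured values, 13 of them higher on replicate 2. Of the 14, 11 passed the olfactory receptor limit on 1 array. With the lower array set to its limit, Aspn alone was still 2-fold apart. The others include Prg4, and the following were chosen after their values were seen. Itgbl1, an integrin-like secreted gene, was at 6.61 and 7.69, at least 1.45-fold, and Angptl1 was at 6.13 and 7.30, at least 1.11-fold. Ecm2, the neighbour of Aspn, was below the limit on both arrays.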
